A study of Mus musculus with 18 samples.

Results

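Hox genes lie in 4 clusters, A to D, and encode homeodomain transcription factors that give cells along the body axis their position. They are numbered by paralog group, so that Hoxb4 and Hoxd4 are the members of paralog group 4 in clusters B and D. All rows of the 2 count tables whose gene name is Hox, a cluster letter and a number were taken, with no condition on level. The table of experiment 1 listed 26 such genes among 25628 (5 in cluster A, 6 in B, 9 in C and 6 in D). The table of experiment 2 listed 30 among 26903 (7, 8, 9 and 6 by the same order), and these include all 26. After a filter on low counts, 13 Hox genes of experiment 1 and 19 of experiment 2 could be tested; the other 13 and 11 are described by their counts. No other Hox gene of the 4 clusters was analysed here.

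The RNA came from line #763, TgSpi1 erythroleukemic cells of mouse bone marrow that overproduce the ETS transcription factor SPI1 (PU.1), grown with erythropoietin. Every group carries the transgene and a doxycycline-inducible hairpin (shRNA) against Spi1, and no library with another hairpin was analysed here, so an effect of doxycycline itself and one of the hairpin cannot be told apart. Experiment 1 set cells given doxycycline for 48 h (Exp1_Dox) against cells without it (Exp1_NoDox). Experiment 2 gave 3 µM entinostat, an inhibitor of class I histone deacetylases, or its vehicle DMSO, for 6 h, which made the groups Dox_Entinostat, NoDox_Entinostat, Dox_DMSO and NoDox_DMSO. Each of the 6 groups holds 3 libraries that the labels call biological replicates, of 1 line, so the spread between them is a spread between cultures of that line.

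In most tissues Hox clusters are kept silent by Polycomb complexes, PRC2 and PRC1, and by low histone acetylation, and are held open by factors such as the MLL histone methyltransferase, encoded by Kmt2a. In blood, genes of clusters A and B are active in stem and progenitor cells and fall as red cells mature, and Hoxa9 with its cofactor Meis1 drives many myeloid leukaemias. HOX proteins bind DNA with PBX and MEIS partners.

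A few Hox genes of clusters B, C and D carried most of the Hox counts of this line. Levels are in CPM, counts per M library counts with TMM scaling factors applied, and levels of different genes are compared as CPM per kb of exon, mean ± SD of 3 libraries. In NoDox_DMSO cells Hoxd8, a trunk patterning gene, stood highest at 10.6 ± 0.232 CPM per kb. Hoxb13, the most posterior gene of cluster B, known from tail and prostate development, followed at 7.03 ± 0.507 CPM per kb. Next came the posterior cluster C genes Hoxc11 at 1.53 ± 0.0674, Hoxc9 at 1.17 ± 0.161 and Hoxc12 at 1.02 ± 0.0899 CPM per kb; the SD ranges of Hoxc9 and Hoxc12 overlap. Hoxb4, which expands blood stem cells when overproduced, stood at 0.546 ± 0.0734 CPM per kb, and Hoxd4, a neck and hindbrain gene, at 0.462 ± 0.139, with overlapping SD ranges. The remaining 23 genes lay at or under 0.168 CPM per kb in that group. Over all 18 libraries Hoxd8 made up 47.3% to 63.7% of all Hox counts, and Hoxb13 made up 16.1% to 28.5%. Hoxb13 is set apart in its cluster, 74009 bp from its nearest listed neighbour Hoxb9 in mm10.

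Cluster A was nearly silent. Its summed level was 0.705 to 0.887 CPM in Dox_Entinostat, 0.407 to 0.693 CPM in NoDox_Entinostat, 0.151 to 0.302 CPM in Dox_DMSO and 0.0436 to 0.0652 CPM in NoDox_DMSO libraries. In experiment 1 it was 0.183 to 0.301 CPM in Exp1_Dox and 0.0987 to 0.156 CPM in Exp1_NoDox libraries; that table holds no value under 1, so its lowest levels are upper limits. Hoxa9, the leukaemia partner of Meis1, had 1 count over the 12 libraries of experiment 2 together.

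**Figure D1:**
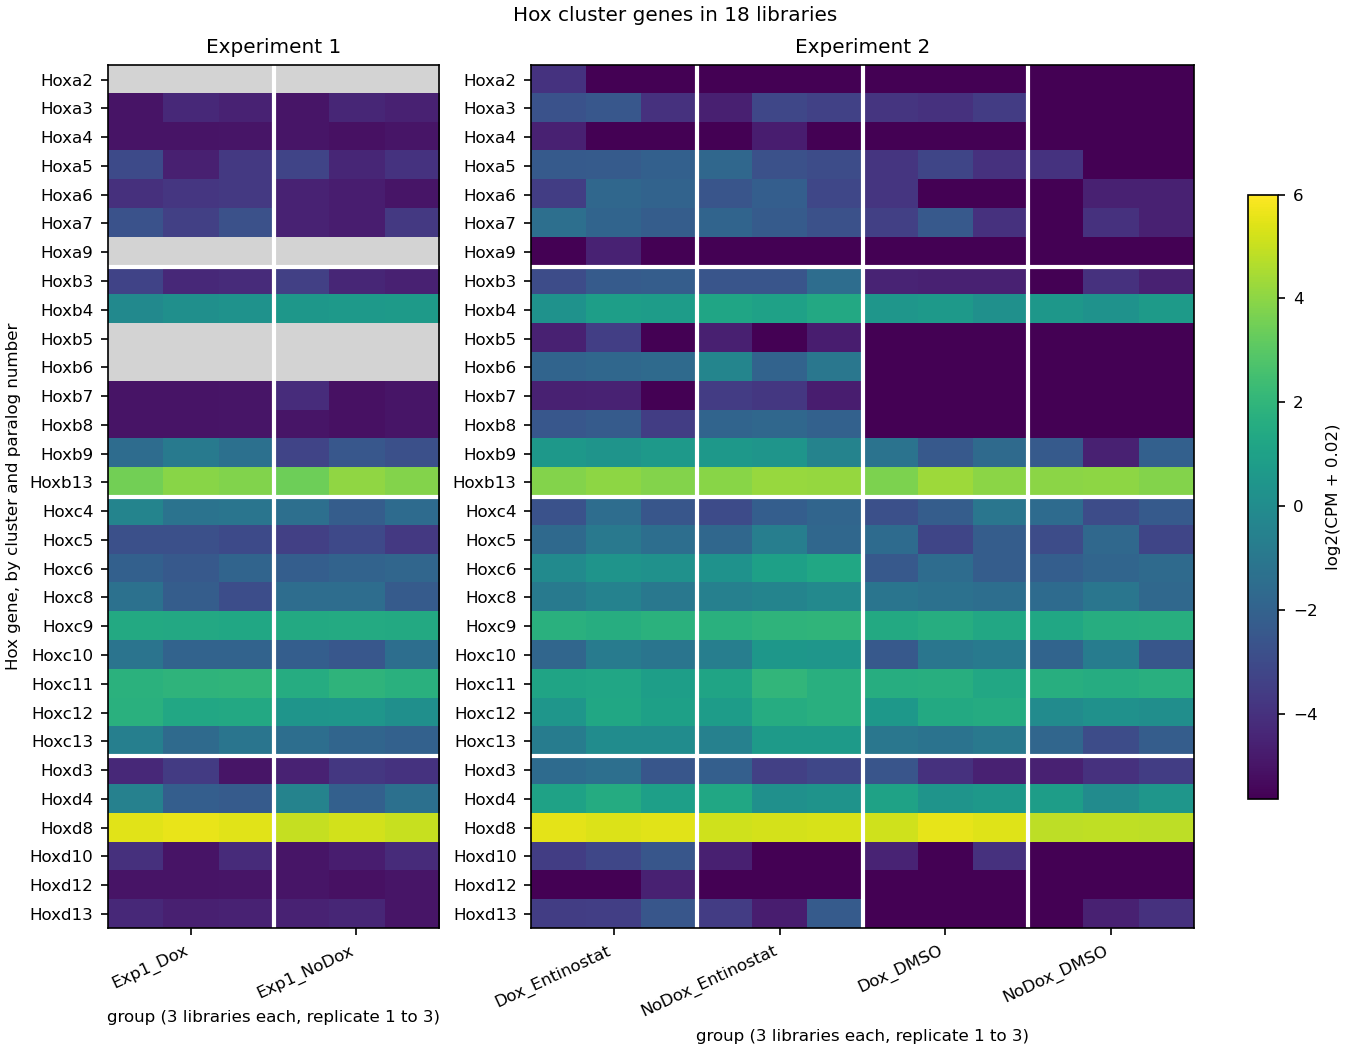
Level of each listed Hox gene, log2(CPM + 0.02), in each library (columns, 3 a group), with rows ordered by cluster and paralog number and grey where a gene is not listed in the experiment 1 table. Hoxd8 and Hoxb13 are bright in all 18 libraries, cluster A is dark in DMSO, and Hoxb6 and Hoxb8 are at 0 in all 6 DMSO libraries but not in entinostat.

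Promoter windows from RefSeq (build GRCm38.p6, 250 bases before to 50 after the start, read along the gene) were found for 15 of the 30 genes, with a median of 13 CG dinucleotides against 7 over 32851 promoters. The 4 shown are those of Hoxa6, Hoxa7 and Hoxb8, which entinostat raised in both arms, and of Hoxd8, which doxycycline raised. The Hoxa7 window lies inside the span of that gene in GENCODE M21 (52214491 to 52221854), which has another start. Capitals mark GGAA, the core that ETS proteins such as SPI1 read, and TTCC, the same core on the opposite strand.
Hoxa6 (chr6:52208623-52208922, minus strand): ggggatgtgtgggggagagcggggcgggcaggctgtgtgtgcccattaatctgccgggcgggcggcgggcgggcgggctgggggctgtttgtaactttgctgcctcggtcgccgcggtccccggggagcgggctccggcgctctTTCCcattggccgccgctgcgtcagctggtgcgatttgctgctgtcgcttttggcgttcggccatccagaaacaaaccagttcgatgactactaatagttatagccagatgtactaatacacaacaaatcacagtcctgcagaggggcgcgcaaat
Hoxa7 (chr6:52218524-52218823, minus strand): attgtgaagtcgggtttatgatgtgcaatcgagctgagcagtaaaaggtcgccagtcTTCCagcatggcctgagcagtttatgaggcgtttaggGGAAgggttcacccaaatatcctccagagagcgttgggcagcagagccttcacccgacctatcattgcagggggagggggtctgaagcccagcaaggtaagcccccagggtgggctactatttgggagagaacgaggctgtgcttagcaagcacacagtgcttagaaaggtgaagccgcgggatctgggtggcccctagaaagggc
Hoxb8 (chr11:96281655-96281954, plus strand): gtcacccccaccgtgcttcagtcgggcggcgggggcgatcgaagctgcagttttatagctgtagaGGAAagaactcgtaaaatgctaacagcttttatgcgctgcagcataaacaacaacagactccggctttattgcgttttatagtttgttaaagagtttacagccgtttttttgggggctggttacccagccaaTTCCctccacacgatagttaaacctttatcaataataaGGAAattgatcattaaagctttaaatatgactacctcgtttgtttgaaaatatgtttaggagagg
Hoxd8 (chr2:74704365-74704664, plus strand): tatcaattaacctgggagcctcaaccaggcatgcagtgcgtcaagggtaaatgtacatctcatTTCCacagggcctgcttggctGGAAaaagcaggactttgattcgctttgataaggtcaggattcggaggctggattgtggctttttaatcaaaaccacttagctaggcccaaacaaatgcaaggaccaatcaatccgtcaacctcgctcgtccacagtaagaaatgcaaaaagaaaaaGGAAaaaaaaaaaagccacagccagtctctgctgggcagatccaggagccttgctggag
The core was found 1 time in the Hoxa6 window, 2 times in that of Hoxa7 and 3 times each in those of Hoxb8 and Hoxd8. It is in 96% of all promoters, so its presence is common to nearly all of them. The longer word AGGAAG, searched on both strands and containing the core, was in none of these 4 windows, in 20% of the 15 and in 35.4% of all promoters; a missing word says only that these letters are not in the window. The windows of Hoxa6 and Hoxb8 hold 26 and 13 CG dinucleotides, and those of Hoxa7 and Hoxd8 hold 9 and 6.

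Depth ranged over 82.7 to 114 M counts per library in the first experiment, and over 43.1 to 48.9 M in the second. Spi1 RNA was lower with doxycycline in each setting, with log2 fold changes of -1.73 ± 0.10, -1.29 ± 0.33 and -1.59 ± 0.33 in experiment 1, DMSO and entinostat (± standard error; adjusted p of 0.000828, 0.0264 and 0.00722). Replicate 1 of Dox_DMSO and replicate 1 of NoDox_Entinostat stand apart: their mean correlations with their own group were 0.9806 and 0.9725, against 0.9846 to 0.9896 for the other libraries of these groups. Spi1 stood at 59.5 CPM in the first of these, against 105 and 126 CPM in the rest of its group, and at 221 CPM in the second, against 480 and 482 CPM. Counts of called Hox genes and of the gene lists in experiment 2 are given with and without them. All 11 of 11 erythroid markers had counts in Dox_Entinostat and Dox_DMSO and 10 of 11 in the other 2 groups of experiment 2, summing to 3480 to 7900 CPM.

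Entinostat without doxycycline raised 12 of the 19 Hox genes tested and lowered 0. The largest rises were in genes that were at or near 0 in DMSO, in clusters A, B and C, while Hoxd8 and Hoxb13, the 2 most abundant genes, had log2 fold changes of 0.37 and 0.15. Called means a Benjamini-Hochberg adjusted p under 0.05 over all genes of an edgeR quasi-likelihood fit. Of all 15051 genes, 30.3% were called higher and 16.9% lower, and the share among the tested Hox genes was 63.2%. That share is a description and no sign of a Hox response, since 8 of the 19 genes (Hoxa6, Hoxa7, Hoxb6, Hoxb8, Hoxb9, Hoxc4, Hoxc5 and Hoxd3) would not pass the filter on the 6 DMSO libraries alone. They hold 5 of the 12 genes called, and 7 are among the 11 that pass on DMSO alone. The same limit holds for the medians and the counts without overlap. The share over all genes also differs with level. Of 12 tested Hox genes with a mean under 1 CPM, 9 were called higher, where 53.8% of all such genes were. Of 7 at 1 CPM or more, 3 were called higher, where 22.9% of all such genes were. The median log2 fold change was 1.30 over the Hox genes, also with the 2 genes absent from DMSO set at their lower bounds, and 0.07 over all genes. The groups did not overlap for 14 genes, all higher with entinostat, where 33.8% of all genes were without overlap and higher.

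More Hox genes were detected at all with entinostat. In the 6 entinostat libraries, 25 to 28 of the 30 listed genes had at least 1 count, against 16 to 21 in the 6 DMSO libraries. Library totals were 43.1 to 47.3 M counts with entinostat and 46.5 to 48.9 M in DMSO. The numbers of genes detected do not overlap between these groups. Over all 26903 rows the shares were 75.2% to 78.2% with entinostat and 64.3% to 66.1% in DMSO. Hoxa2, Hoxa4, Hoxa9, Hoxb5, Hoxb6, Hoxb7, Hoxb8 and Hoxd12, 8 genes in all, had 0 counts in all 6 DMSO libraries. Each of the 26903 rows has a count in some library, so a count with entinostat was fixed in advance for these genes. Hoxa2, Hoxa4, Hoxa9 and Hoxd12 had only 1 or 2 counts over the 6 entinostat libraries together.

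In cluster A, Hoxa6 and Hoxa7 rose in both arms from a few reads. Both passed the filter on low counts only with the entinostat libraries, so their calls are descriptions. Among all genes with a mean under 1 CPM, 53.8% were called higher without doxycycline and 59.7% with it. Both are trunk patterning genes that are also expressed in blood progenitors. Hoxa6 (ENSMUSG00000043219, mm10 chromosome 6, 52206288 to 52208722, minus strand) had 7, 11 and 5 counts in NoDox_Entinostat against 0, 1 and 1 in NoDox_DMSO libraries, and 3, 12 and 11 in Dox_Entinostat against 2, 0 and 0 in Dox_DMSO libraries. Each entinostat library was above each DMSO library of its arm. The CPM ratio of the summed counts was 10 without doxycycline (95% interval 2.48 to 87.8, adjusted p = 0.0179) and 12.9 with it (3.24 to 112, adjusted p = 0.00651); such intervals cover counting error only. Hoxa7 (ENSMUSG00000038236, mm10 chromosome 6, 52214491 to 52221854, minus strand) had 12, 10 and 7 counts in NoDox_Entinostat against 0, 2 and 1 in NoDox_DMSO libraries, a ratio of 8.43 (2.61 to 43.3, adjusted p = 0.00650). With doxycycline it had 16, 11 and 9 counts in Dox_Entinostat against 3, 8 and 2 in Dox_DMSO libraries, a log2 fold change of 1.44 ± 0.58 (adjusted p = 0.0446). That last call was lost in 9 of 12 fits that each left out 1 library (adjusted p of up to 0.172). Hoxa7 overlaps the exons of Hoxaas3 on the opposite strand by 586 bp, and in unstranded libraries their reads cannot be told apart.

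In cluster B, 4 of the 5 tested genes rose without doxycycline, and Hoxb6 and Hoxb8 went to detectable levels where DMSO libraries held no read. Of the 4, Hoxb6, Hoxb8 and Hoxb9 passed the filter on low counts only with the entinostat libraries, so their calls are descriptions. Over all genes 30.3% were called higher, and 53.8% of those with a mean under 1 CPM. Hoxb8, a gene that blocks myeloid differentiation when forced on, and Hoxb6 lie in the trunk part of the cluster. Between them lies Hoxb7, which was too low to test and had 9 counts over the 6 entinostat libraries together. Hoxb6 (ENSMUSG00000000690, mm10 chromosome 11, 96292476 to 96301569, plus strand) had 36, 13 and 25 counts in NoDox_Entinostat and 11, 12 and 14 in Dox_Entinostat, against 0 in each library of NoDox_DMSO and Dox_DMSO. Taking 3 counts over the group as the most that 0 allows, it was at least 21.5-fold higher without doxycycline (adjusted p = 0.000392) and at least 12.3-fold higher with it (adjusted p = 0.000854). Hoxb8 (ENSMUSG00000056648, mm10 chromosome 11, 96281905 to 96285315, plus strand) had 12, 15 and 12 counts in NoDox_Entinostat and 7, 8 and 3 in Dox_Entinostat, again against 0 in each DMSO library. It was at least 11.3-fold higher without doxycycline (adjusted p = 0.000718) and at least 5.97-fold higher with it (adjusted p = 0.00209). Both genes were thus seen in every entinostat library and in no DMSO library of experiment 2. Hoxb8 was also at the table minimum of 1 in all 6 libraries of experiment 1, and Hoxb6 is not in that table.

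Hoxb9, which shapes the rib cage, rose from a low level in both arms. Hoxb9 (ENSMUSG00000020875, mm10 chromosome 11, 96271457 to 96276595, plus strand) stood at 1.45, 1.32 and 0.722 CPM in NoDox_Entinostat against 0.180, 0.0217 and 0.218 CPM in NoDox_DMSO libraries, a log2 fold change of 3.03 ± 0.53 (adjusted p = 0.000504). It stood at 1.45, 1.30 and 1.56 CPM in Dox_Entinostat against 0.418, 0.173 and 0.302 CPM in Dox_DMSO libraries (2.27 ± 0.49, adjusted p = 0.00142). Every entinostat library was above every DMSO library. Hoxb4 (ENSMUSG00000038692, mm10 chromosome 11, 96318267 to 96321638, plus strand) moved less, with 2.31, 2.01 and 2.57 CPM in NoDox_Entinostat against 1.39, 1.22 and 1.59 CPM in NoDox_DMSO libraries (0.71 ± 0.25, adjusted p = 0.0301). The groups do not overlap, but the call was lost without either of 2 libraries of each group (adjusted p of up to 0.118). In the doxycycline arm Hoxb4 had 1.21, 1.80 and 1.72 CPM in Dox_Entinostat against 1.35, 1.53 and 1.12 CPM in Dox_DMSO libraries, which overlap (0.24 ± 0.25, adjusted p = 0.419). Hoxb13 (ENSMUSG00000049604, mm10 chromosome 11, 96194316 to 96197447, plus strand) was not called in either arm. It had 15.1, 18.7 and 18 CPM in NoDox_Entinostat against 15.9, 16.4 and 14.2 CPM in NoDox_DMSO libraries (0.15 ± 0.17), and 14.3, 16.4 and 14.4 CPM in Dox_Entinostat against 12.9, 19.7 and 15.8 CPM in Dox_DMSO libraries (-0.10 ± 0.18).

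In cluster C, 5 of 9 genes rose without doxycycline, and Hoxc6 alone of them was also called with it. Over all genes 30.3% were called higher without doxycycline and 33.9% with it. Hoxc6 (ENSMUSG00000001661, mm10 chromosome 15, 102998257 to 103011881, plus strand), known from motor neurons of the forelimb level, had 1.20, 1.96 and 2.46 CPM in NoDox_Entinostat against 0.202, 0.261 and 0.305 CPM in NoDox_DMSO libraries (2.86 ± 0.37, adjusted p = 5.25e-05). In the doxycycline arm it had 0.940, 1.30 and 1.17 CPM in Dox_Entinostat against 0.172, 0.324 and 0.194 CPM in Dox_DMSO libraries (2.28 ± 0.37, adjusted p = 0.000236). No library of either drug arm overlapped its vehicle group. Hoxc13 (ENSMUSG00000001655, mm10 chromosome 15, 102921103 to 102928814, plus strand), a hair and nail gene, had 0.672, 1.63 and 1.59 CPM in NoDox_Entinostat against 0.270, 0.109 and 0.196 CPM in NoDox_DMSO libraries (2.75 ± 0.44, adjusted p = 0.000264). With doxycycline the same gene had 0.582, 0.978 and 0.991 CPM in Dox_Entinostat against 0.467, 0.410 and 0.495 CPM in Dox_DMSO libraries (0.89 ± 0.41, adjusted p = 0.0715). It was higher in all 3 libraries there too but missed the threshold.

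The posterior genes Hoxc10 and Hoxc12 were called without doxycycline and not with it. Hoxc12 (ENSMUSG00000050328, mm10 chromosome 15, 102936757 to 102938609, plus strand) had 1.70, 2.91 and 3.20 CPM in NoDox_Entinostat against 0.966, 1.15 and 1.05 CPM in NoDox_DMSO libraries (1.30 ± 0.33, adjusted p = 0.00609). It had 1.37, 2.46 and 1.96 CPM in Dox_Entinostat against 1.47, 2.66 and 2.84 CPM in Dox_DMSO libraries, which overlap (-0.27 ± 0.32, adjusted p = 0.473). Hoxc10 (ENSMUSG00000022484, mm10 chromosome 15, 102966796 to 102971893, plus strand), a gene of lumbar motor neurons, had 0.609, 1.43 and 1.39 CPM in NoDox_Entinostat against 0.247, 0.565 and 0.153 CPM in NoDox_DMSO libraries (1.82 ± 0.53, adjusted p = 0.0129). With doxycycline it had 0.269, 0.546 and 0.440 CPM in Dox_Entinostat against 0.172, 0.454 and 0.539 CPM in Dox_DMSO libraries (0.09 ± 0.55, adjusted p = 0.887). Hoxc8 (ENSMUSG00000001657, mm10 chromosome 15, 102990607 to 102994111, plus strand), a thoracic gene, had 0.651, 0.749 and 0.871 CPM in NoDox_Entinostat against 0.315, 0.456 and 0.284 CPM in NoDox_DMSO libraries (1.10 ± 0.32, adjusted p = 0.0118). In the doxycycline arm it had 0.515, 0.705 and 0.484 CPM in Dox_Entinostat against 0.442, 0.389 and 0.345 CPM in Dox_DMSO libraries (0.53 ± 0.32, adjusted p = 0.160). Without NoDox_DMSO replicate 1 or replicate 3 the calls of Hoxc8 and Hoxc10 were lost, at adjusted p of up to 0.0556 and 0.0575.

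Hoxc9 and Hoxc11, the genes of cluster C with the highest mean CPM over experiment 2 (3.12 and 2.81), were not called. Hoxc12, which was called without doxycycline, had a mean of 1.98 CPM. Per kb of exon Hoxc12 had the higher mean in NoDox_Entinostat, Dox_DMSO and Dox_Entinostat, at 2.53, 2.25 and 1.87 CPM per kb. Hoxc9 and Hoxc11 had at most 1.56 there, with SD ranges that overlap that of Hoxc12 in each group. Hoxc9 (ENSMUSG00000036139, mm10 chromosome 15, 102976439 to 102985099, plus strand) had 3.32, 3.75 and 3.87 CPM in NoDox_Entinostat against 2.40, 3.00 and 3.14 CPM in NoDox_DMSO libraries (0.36 ± 0.19, adjusted p = 0.154), and 3.31, 3.07 and 3.41 CPM in Dox_Entinostat against 2.65, 3.07 and 2.50 CPM in Dox_DMSO libraries (0.25 ± 0.20). Hoxc11 (ENSMUSG00000001656, mm10 chromosome 15, 102954427 to 102957708, plus strand) had 2.19, 3.98 and 3.28 CPM in NoDox_Entinostat against 3.15, 2.93 and 3.19 CPM in NoDox_DMSO libraries (0.03 ± 0.24). With doxycycline it had 2.19, 2.34 and 1.81 CPM in Dox_Entinostat against 3.02, 3.11 and 2.48 CPM in Dox_DMSO libraries (-0.44 ± 0.24, adjusted p = 0.128). It is the 1 tested gene whose entinostat libraries all lay under its vehicle libraries, where 30.5% of all genes did. Hoxc4 and Hoxc5 were not called in either arm, with log2 fold changes of -0.06 ± 0.61 and 1.27 ± 0.57 without doxycycline and -0.30 ± 0.59 and 0.94 ± 0.56 with it. Hoxc5 and Hoxc10 share 166 bp of exon, so reads there may be split between them.

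In cluster D the most abundant gene, Hoxd8, rose slightly without doxycycline. Hoxd8 (ENSMUSG00000027102, mm10 chromosome 2, 74704615 to 74707933, plus strand) had 35.3, 37.5 and 39.6 CPM in NoDox_Entinostat against 28.8, 29.8 and 28.6 CPM in NoDox_DMSO libraries (0.37 ± 0.14, adjusted p = 0.0459). The groups do not overlap, but the call was lost in 9 of 12 fits that each left out 1 library (adjusted p of up to 0.145). With doxycycline the levels overlap, at 45.4, 41.2 and 44.1 CPM in Dox_Entinostat against 35.9, 47.6 and 43.7 CPM in Dox_DMSO libraries (0.04 ± 0.14). Hoxd3 (ENSMUSG00000079277, mm10 chromosome 2, 74711927 to 74748442, plus strand), which shapes the first neck vertebrae, was called with doxycycline and not without it. It had 14, 16 and 7 counts in Dox_Entinostat against 6, 2 and 1 in Dox_DMSO libraries (1.98 ± 0.66, adjusted p = 0.0190), and 10, 4 and 5 in NoDox_Entinostat against 1, 2 and 3 in NoDox_DMSO libraries (1.43 ± 0.76, adjusted p = 0.143). Without replicate 2 of Dox_Entinostat, or replicate 2 or 3 of Dox_DMSO, its call was lost (adjusted p of up to 0.085). Hoxd4 was not called in either arm (0.23 ± 0.35 and, with doxycycline, 0.51 ± 0.35). Hoxd3 shares 388 bp of exon with Hoxd4, and both share 347 bp with Hoxd3os1 on the opposite strand, so their reads may be mixed; both also share exon with Gm28230 on their own strand.

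Entinostat with doxycycline thus raised 7 of 19 Hox genes, Hoxa6, Hoxa7, Hoxb6, Hoxb8, Hoxb9, Hoxc6 and Hoxd3, and lowered 0. This share of 36.8% is near the background of 33.9% of all genes called higher, beside 29.9% lower. Of the 7, Hoxc6 is the 1 gene that passes the filter on DMSO libraries alone, and the other 6 are among the 8 that do not. The groups did not overlap for 10 higher genes, against 35.4% of all genes. The median log2 fold change was 0.53 over the Hox genes and 0.14 over all genes. Calls held in each fit that left out 1 library for 5 of these 7 genes, and without doxycycline for 7 of 12 (Hoxa7, Hoxb6, Hoxb8, Hoxb9, Hoxc6, Hoxc12 and Hoxc13). Without both libraries that stand apart, 13 Hox genes were called higher without doxycycline, Hoxc5 in addition (1.46 ± 0.57, adjusted p = 0.0374), where 36.2% of all genes were higher and 27.7% lower. With doxycycline 8 were called higher, where 43.1% of all genes were higher and 34.7% lower; Hoxc13 (0.90 ± 0.38, adjusted p = 0.0450) and Hoxd4 (0.73 ± 0.30, adjusted p = 0.0362) were added, and Hoxa7 was lost (1.29 ± 0.67, adjusted p = 0.0943). Hoxd3 had 2.99 ± 0.75 there (adjusted p = 0.00237), and Hoxa6 was called (adjusted p = 0.00242) but has 0 counts in the 2 Dox_DMSO libraries kept, so its fitted value is no bound.

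**Figure D2:**
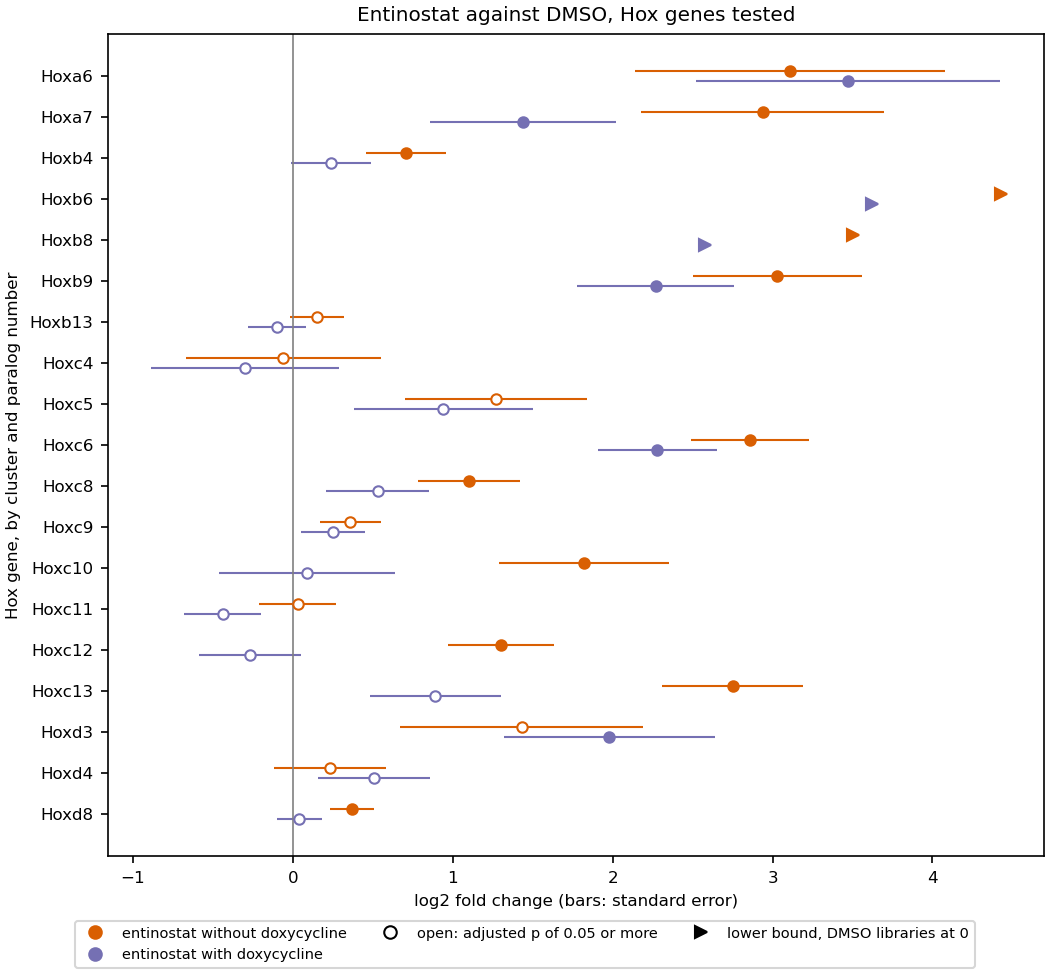
Log2 fold change with standard error of entinostat against DMSO, without doxycycline (orange) and with it (purple), for the 19 Hox genes tested; filled points have an adjusted p under 0.05, and triangles are lower bounds for genes at 0 in DMSO. Hoxb6, Hoxb8, Hoxb9 and Hoxc6 lie above 2 on this scale in both arms, and Hoxb13, Hoxc9, Hoxc11 and Hoxd8 lie between -0.44 and 0.37; Hoxa6 rests on 2 DMSO counts in each arm.

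Markers of other cell types moved with entinostat, and their part in these results was not tested. Summed stromal and fibroblast markers were 2.80 to 4.37 CPM in Dox_Entinostat and 2.85 to 3.76 CPM in NoDox_Entinostat, with 5 of 6 listed genes counted in each. They were 0.151 to 0.393 CPM in Dox_DMSO and 0.153 to 0.270 CPM in NoDox_DMSO, with 2 of 6 counted and Col1a2, Col3a1, Pdgfra and Pdgfrb at 0. Summed macrophage markers were 3.65 to 5.37 CPM in Dox_Entinostat, 13.6 to 17.7 CPM in NoDox_Entinostat, 1.68 to 2.70 CPM in Dox_DMSO and 3.60 to 4.15 CPM in NoDox_DMSO, with 6, 6, 4 and 5 of 6 genes counted and Mrc1 at 0 in DMSO. Endothelial markers summed to 1.45 to 1.98, 2.08 to 7.98, 0.0737 to 0.280 and 0.247 to 0.655 CPM in the same order of groups, with all 3 listed genes counted in each. Megakaryocyte markers summed to 65.5 to 126, 80.4 to 123, 30.0 to 44.7 and 30.6 to 67.0 CPM in that order. Mast cell markers summed to 0.396 to 1.05, 2.04 to 4.58, 0.0216 to 0.0737 and 0.175 to 0.652 CPM. Neutrophil, B cell, and T and NK cell markers each summed to at most 0.475 CPM. Erythroid markers summed to 5900 to 7900, 3670 to 4130, 4680 to 5620 and 3480 to 3640 CPM, again in that order. In bulk RNA a change in the number of cells that hold a transcript and a change in RNA per cell cannot be told apart.

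**Figure D3:**
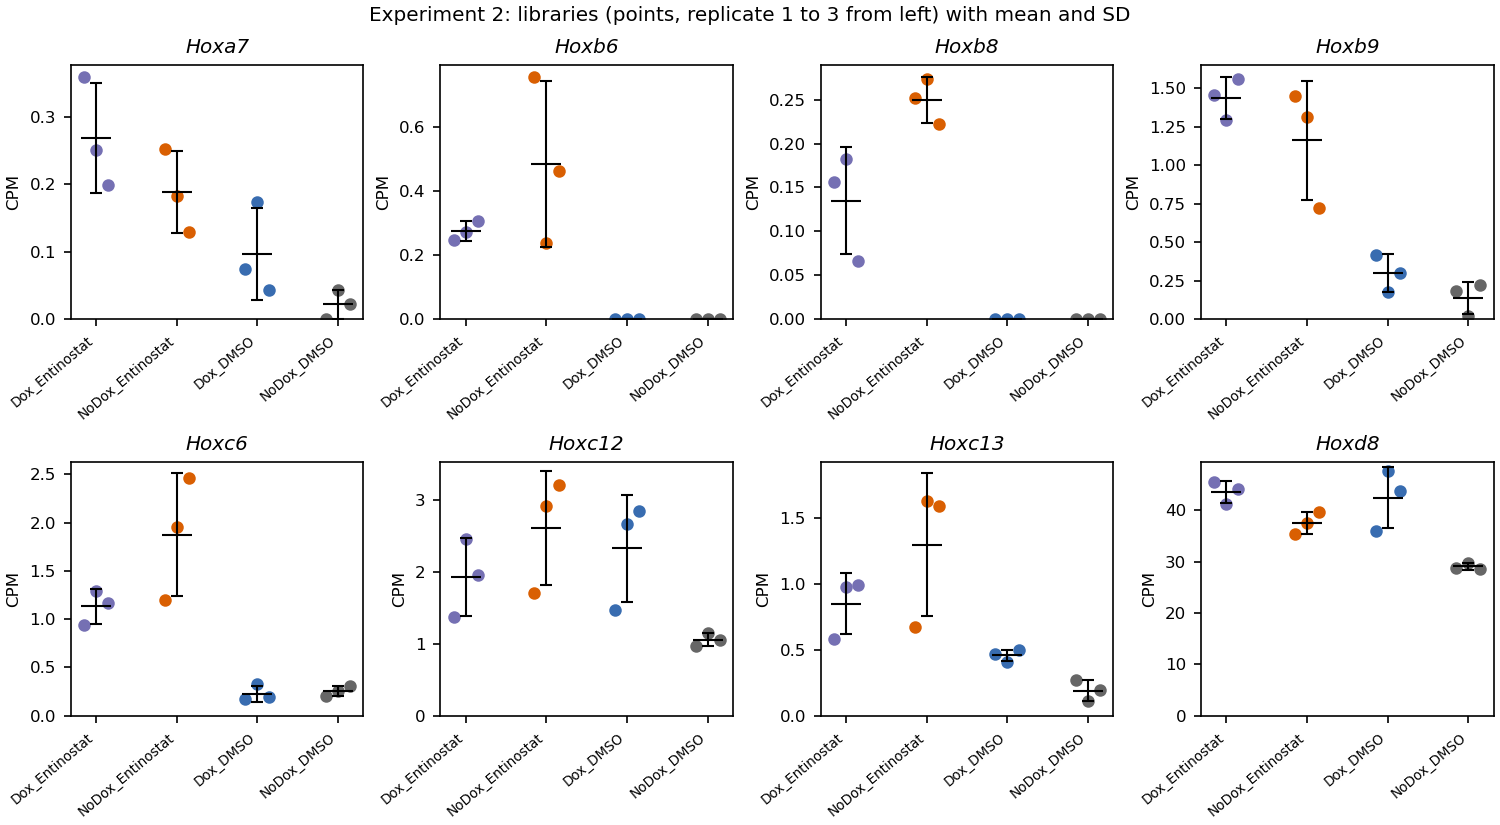
Level in CPM in each library of experiment 2 (points, replicates 1 to 3 from left) with the mean and SD of 3 libraries, for 8 Hox genes named in the text. Hoxb6 and Hoxb8 lie at 0 in both DMSO groups, Hoxb9 and Hoxc6 lie higher in both entinostat groups, and Hoxc12 and Hoxd8 lie lowest in NoDox_DMSO.

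Doxycycline in experiment 1 raised 3 of the 13 Hox genes tested, Hoxb9, Hoxc12 and Hoxd8, and lowered 0. Over all 13811 genes 5.26% were called higher and 8.36% lower. Hoxc12 had 3.31, 2.50 and 2.58 CPM in Exp1_Dox against 1.33, 1.36 and 1.09 CPM in Exp1_NoDox libraries (1.15 ± 0.17, adjusted p = 0.00834). Hoxb9 had 0.322, 0.519 and 0.378 CPM in Exp1_Dox against 0.0839, 0.162 and 0.124 CPM in Exp1_NoDox libraries (1.69 ± 0.31, adjusted p = 0.0180). Both groups were apart for each gene. Hoxd8 had 44.7, 48.3 and 44.9 CPM in Exp1_Dox against 31.9, 37.3 and 32.5 CPM in Exp1_NoDox libraries (0.44 ± 0.09, adjusted p = 0.0280). The groups did not overlap for 4 genes that were higher and 2 that were lower, against 15.3% and 16.8% of all genes. Markers of other cell types differed here too, and their part in these results was not tested. Erythroid markers summed to 5460 to 6780 CPM in Exp1_Dox and 3650 to 4540 CPM in Exp1_NoDox libraries, with 11 of 11 genes above the table minimum in each. Macrophage markers summed to 1.35 to 1.52 CPM in Exp1_Dox and 2.91 to 3.93 CPM in Exp1_NoDox libraries (5 of 5 listed genes in each), and endothelial markers to 0.125 to 0.344 and 0.476 to 0.887 CPM (3 of 3).

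The call of each of the 3 genes was lost without at least 1 library. Without replicate 3 of Exp1_NoDox none of the 3 was called, with adjusted p of 0.0879 for Hoxb9, 0.0503 for Hoxc12 and 0.145 for Hoxd8. Hoxb9 was also lost without replicate 2 or 3 of Exp1_Dox, and Hoxd8 without either of these or replicate 1 of Exp1_NoDox. The same-number libraries of this experiment deviate together, and a fit blocked on that number called 6 genes, 5 higher and 1 lower, and also raised the share of all genes called to 26.1% higher and 24.7% lower. The added genes were Hoxc4 (0.86 ± 0.21, adjusted p = 0.00744), Hoxc13 (0.69 ± 0.22, adjusted p = 0.0271) and, lower, Hoxb4 (-0.52 ± 0.12, adjusted p = 0.00585). Hoxc4 had 0.737, 0.407 and 0.435 CPM in Exp1_Dox against 0.359, 0.197 and 0.316 CPM in Exp1_NoDox libraries. Hoxc13 had 0.633, 0.305 and 0.435 CPM in Exp1_Dox against 0.347, 0.260 and 0.225 CPM in Exp1_NoDox libraries. Hoxb4 had 0.903, 1.09 and 1.20 CPM in Exp1_Dox against 1.41, 1.53 and 1.61 CPM in Exp1_NoDox libraries, groups that do not overlap. Without the block these 3 had adjusted p of 0.165, 0.228 and 0.0902.

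The other tested genes of experiment 1 were not called with or without the block. Hoxb13 had 11.3, 15 and 14 CPM in Exp1_Dox against 10.6, 16.9 and 14.2 CPM in Exp1_NoDox libraries (-0.05 ± 0.20). Hoxc11 had 3.50, 3.76 and 3.95 CPM in Exp1_Dox against 2.98, 3.80 and 3.31 CPM in Exp1_NoDox libraries (0.15 ± 0.13). Hoxc9 had 2.66, 2.60 and 2.44 CPM in Exp1_Dox against 2.68, 2.73 and 2.70 CPM in Exp1_NoDox libraries (-0.08 ± 0.11), a small difference without overlap. Hoxc6, Hoxc8, Hoxc10 and Hoxd4 had log2 fold changes of -0.16 ± 0.23, -0.30 ± 0.47, 0.36 ± 0.38 and -0.27 ± 0.65. Hoxa7, too low to test with the filter, had 13, 7 and 11 counts in Exp1_Dox against 2, 2 and 5 in Exp1_NoDox libraries; without the filter its log2 fold change was 1.74 ± 0.46 (adjusted p = 0.0702).

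In DMSO, doxycycline raised 1 of 19 Hox genes, Hoxd8, and lowered 0; of all genes 3.77% were called higher and 5.53% lower. Hoxd8 had 35.9, 47.6 and 43.7 CPM in Dox_DMSO against 28.8, 29.8 and 28.6 CPM in NoDox_DMSO libraries (0.54 ± 0.14, adjusted p = 0.0267). This call was lost without any 1 of the NoDox_DMSO libraries, replicate 2 or 3 of Dox_DMSO, or replicate 3 of Dox_Entinostat (adjusted p of up to 0.146). Hoxc12, at 1.47, 2.66 and 2.84 CPM in Dox_DMSO against 0.966, 1.15 and 1.05 CPM in NoDox_DMSO libraries, had a log2 fold change of 1.14 ± 0.33, near its value in experiment 1, and an adjusted p of 0.0506. With the replicate block it was called (1.09 ± 0.24, adjusted p = 0.00749). Hoxc13 had 0.467, 0.410 and 0.495 CPM in Dox_DMSO against 0.270, 0.109 and 0.196 CPM in NoDox_DMSO libraries (1.25 ± 0.46, adjusted p = 0.131). Hoxc12, Hoxc13 and Hoxd8 were the 3 genes whose groups did not overlap, all higher with doxycycline, against 11.5% of all genes. Hoxb9 had 0.418, 0.173 and 0.302 CPM in Dox_DMSO against 0.180, 0.0217 and 0.218 CPM in NoDox_DMSO libraries, which overlap (1.07 ± 0.58, adjusted p = 0.351). Hoxa7 had 3, 8 and 2 counts in Dox_DMSO against 0, 2 and 1 in NoDox_DMSO libraries, a CPM ratio of 4.43 (1.22 to 24.2, adjusted p = 0.193). Without replicate 1 of both Dox_DMSO and NoDox_Entinostat, 3 genes were called higher, Hoxd8, Hoxc12 (1.38, adjusted p = 0.00111) and Hoxc13 (1.23, adjusted p = 0.044), in a fit that called 17.4% of all genes higher and 13.9% lower. The summed erythroid, macrophage and mast cell markers given above for Dox_DMSO and NoDox_DMSO libraries do not overlap either, and their part was not tested.

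In entinostat, doxycycline changed 0 of 19 Hox genes in the edgeR test, where 8.96% of all genes were called higher and 15.1% lower. At an unadjusted p under 0.05 there were 4, all lower (Hoxb4, Hoxc6, Hoxc10 and Hoxc11), where 41.5% of all genes passed it. DESeq2 called 1, Hoxc10, as lower, where it called 17.5% of all genes lower. The limma-voom test called 0, where 11.7% of all genes were called higher and 14.7% lower. Hoxc10 had 0.269, 0.546 and 0.440 CPM in Dox_Entinostat against 0.609, 1.43 and 1.39 CPM in NoDox_Entinostat libraries (-1.45 ± 0.52, adjusted p = 0.0591), groups that do not overlap. Hoxc6 had 0.940, 1.30 and 1.17 CPM in Dox_Entinostat against 1.20, 1.96 and 2.46 CPM in NoDox_Entinostat libraries (-0.72 ± 0.32, adjusted p = 0.109). The groups did not overlap for 1 higher gene, Hoxd8, and 3 lower ones, Hoxb4, Hoxb8 and Hoxc10, against 18.3% and 19.4% of all genes. For Hoxc6 the low replicate 1 of NoDox_Entinostat sits inside the range of the other group. Without both libraries that stand apart, 7 Hox genes were called. Of these, 5 were lower, Hoxc10 (-1.75, adjusted p = 0.00296), Hoxc11 (-0.78, 0.00449), Hoxc6 (-0.96, 0.0101), Hoxc13 (-0.92, 0.028) and Hoxc12 (-0.67, 0.03), and 2 were higher, Hoxd4 (0.94, 0.0137) and Hoxd3 (1.70, 0.026). That fit called 26.1% of all genes higher and 35.7% lower.

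**Figure D4:**
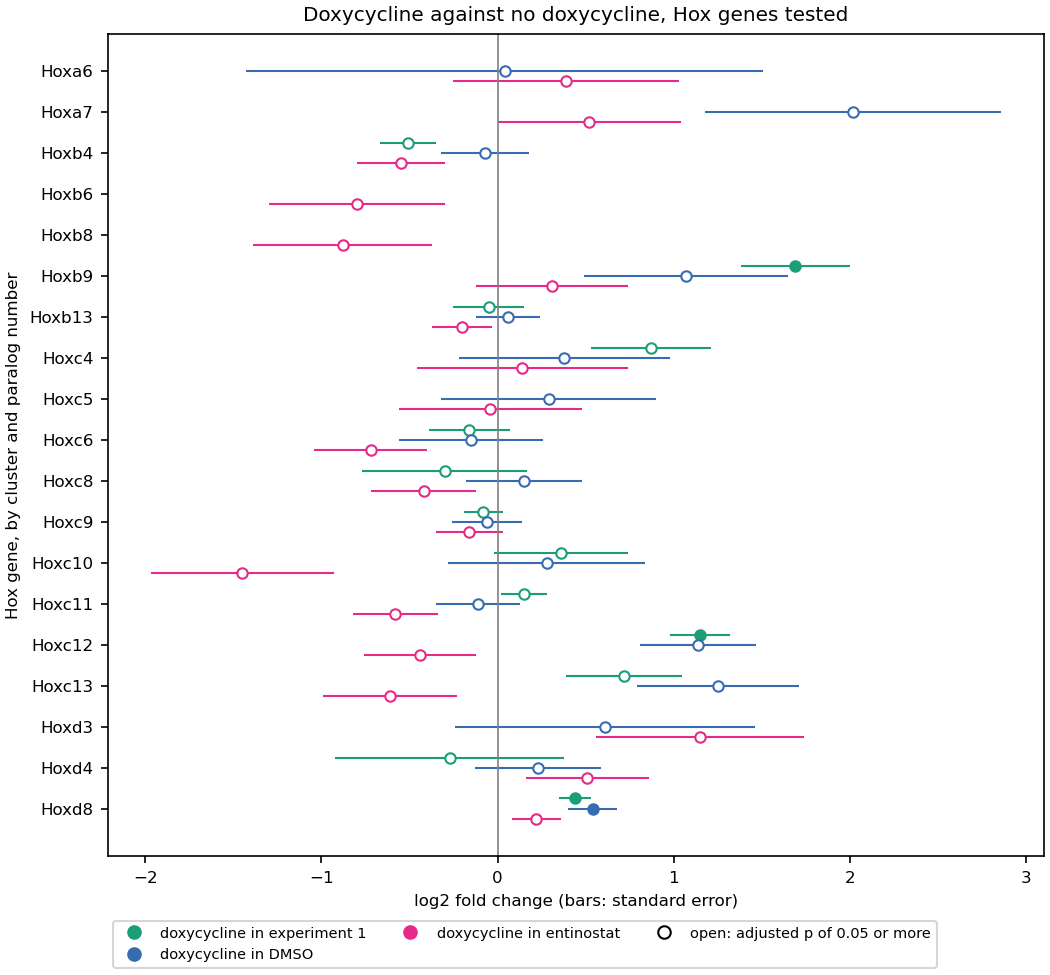
Log2 fold change with standard error of doxycycline against no doxycycline for each tested Hox gene, in experiment 1 (green), in DMSO (blue) and in entinostat (pink); filled points have an adjusted p under 0.05. Hoxc12 lies near 1.15 in experiment 1 and 1.14 in DMSO but at -0.44 in entinostat, and Hoxd8 lies above 0 in all 3.

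Whether the doxycycline effect differs with entinostat was tested as an interaction, the effect in entinostat minus that in DMSO. The edgeR test called 0 of 19 Hox genes and 0.272% of all genes. At an unadjusted p under 0.05, which 15.8% of all genes passed, there were 3, Hoxc12 (-1.58 ± 0.46, adjusted p = 0.258), Hoxc13 (-1.86 ± 0.60, adjusted p = 0.301) and Hoxc10 (-1.73 ± 0.77, adjusted p = 0.314), while DESeq2 and limma-voom called 0. All 3 had positive values with doxycycline in DMSO (1.14, 1.25 and 0.28) and negative ones in entinostat (-0.44, -0.61 and -1.45). Hoxb6 and Hoxb8, absent from DMSO, have no estimate. Without both libraries that stand apart, 5 Hox genes were called, all with a more negative effect in entinostat, namely Hoxc12 (-2.05, adjusted p = 0.000253), Hoxc13 (-2.16, 0.00443), Hoxc10 (-2.37, 0.00726), Hoxd8 (-0.48, 0.00785) and Hoxb13 (-0.48, 0.0367). That fit called 21.5% of all genes positive and 30.0% negative, so these results rest on which libraries are kept.

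The Hox genes that failed the filter on low counts lay in clusters A, B and D, with Hoxc5 of cluster C in experiment 1 alone. In experiment 2, Hoxa5 had 13, 7 and 6 counts in NoDox_Entinostat against 2, 0 and 0 in NoDox_DMSO libraries, a CPM ratio of 11.3 (2.84 to 98.6). Hoxb3, next to Hoxb4, had 7, 8 and 18 counts in NoDox_Entinostat against 0, 2 and 1 in NoDox_DMSO libraries, a ratio of 9.60 (3.01 to 48.9). In the doxycycline arm Hoxb3 had 5, 8 and 9 counts in Dox_Entinostat against 1 in each Dox_DMSO library, a ratio of 7.30 (2.19 to 38.1). Without the filter Hoxa5 and Hoxb3 were called without doxycycline (adjusted p of 0.00748 and 0.00554), and so was Hoxa3 (0.0277), at 1, 5 and 4 counts in NoDox_Entinostat against 0 in each NoDox_DMSO library. Hoxb3 (0.0187) and Hoxd13 (0.0114) were called with doxycycline; Hoxd13 had 3, 3 and 7 counts in Dox_Entinostat against 0 in each Dox_DMSO library, at least 4.31-fold higher. That unfiltered fit called 19.3% of all genes higher with entinostat without doxycycline, and 20.9% with it. It lost the entinostat calls of Hoxb4 (adjusted p = 0.097) and Hoxd8 (0.216) without doxycycline, and of Hoxa7 (0.121) with it. Hoxb3 overlaps the exons of Hoxb3os on the opposite strand by 2250 bp. Hoxb5, Hoxb7 and Hoxd10 had 6, 9 and 15 counts in the 6 entinostat libraries together, against 0, 0 and 3 in the 6 DMSO libraries. In experiment 1, Hoxa4, Hoxb8 and Hoxd12 were at the table minimum of 1 in every library, and the other 10 genes that failed the filter had at most 13 counts in any library.

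Of the 8 listed cofactors of HOX proteins, all tested in experiment 2, Meis1 fell with doxycycline and rose with entinostat. Its log2 fold changes with doxycycline were -1.06 ± 0.22 in experiment 1 (adjusted p = 0.0271), -0.97 ± 0.27 in DMSO (0.0385) and -0.94 ± 0.26 in entinostat (0.0254). With entinostat they were 1.09 ± 0.26 without doxycycline (adjusted p = 0.00441) and 1.12 ± 0.27 with it (0.00303). Meis1 had 11.2, 18.9 and 19.2 CPM in NoDox_Entinostat against 5.78, 8.12 and 9.32 CPM in NoDox_DMSO libraries, groups that do not overlap, while Hoxa9 had 0 counts in these 6 libraries. Entinostat without doxycycline raised 4 of 8 cofactors and lowered 0, beside the 30.3% and 16.9% of all genes; besides Meis1 these included Pbx4 (1.61 ± 0.29, adjusted p = 0.000650) and Meis3 (2.10 ± 0.44, 0.00166). With doxycycline, entinostat raised 2 of 8, Meis1 and Pbx4, and lowered 4, among them Pbx2 (-0.63 ± 0.14) and Pbx3 (-0.93 ± 0.21), beside 33.9% and 29.9% of all genes. Meis1 was also called without both libraries that stand apart, with -0.78 ± 0.19 and -1.16 ± 0.18 for doxycycline in DMSO and in entinostat, and 1.29 ± 0.18 and 0.91 ± 0.19 for entinostat without doxycycline and with it. Entinostat then raised 4 and lowered 1 of the 8 without doxycycline, beside 36.2% and 27.7% of all genes. With doxycycline it raised 2 and lowered 4, beside 43.1% and 34.7% of all genes. Meis3 had 2.22 ± 0.40 and Pbx4 1.49 ± 0.25 without doxycycline.

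Genes for proteins that hold Hox clusters open or closed were lower more often than higher where entinostat changed them with doxycycline present. There 33.9% of all genes were higher and 29.9% lower, and without doxycycline 30.3% were higher and 16.9% lower. With every library, 0 of the genes in these lists passed the interaction test, as 0.272% of all genes did. Of 10 tested activators of Hox genes, entinostat lowered 2 without doxycycline and 8 with it, and raised 0 in either. Kmt2a was not among them (0.17 ± 0.25 and, with doxycycline, -0.16 ± 0.25). Of 11 PRC2 subunits, entinostat raised 1 and lowered 1 without doxycycline, and raised 0 and lowered 6 with it. Ezh2, the PRC2 methyltransferase, had -0.17 ± 0.17 (adjusted p = 0.453) and, with doxycycline, -0.60 ± 0.17 (adjusted p = 0.00879). Of 19 PRC1 subunits, 2 rose and 5 fell without doxycycline, and 1 rose and 8 fell with it; Bmi1 fell by 0.97 on the log2 scale in both arms (± 0.19; adjusted p of 0.00105 and 0.000734), and Cbx7 rose by 0.85 ± 0.19 and 0.97 ± 0.19. Doxycycline alone changed few: in experiment 1 and in DMSO, 0 of 11 PRC2 subunits and 1 of 19 PRC1 subunits, which was higher, were called, beside 5.26% and 3.77% of all genes higher and 8.36% and 5.53% lower. Of the activators 1 was higher in experiment 1 and 0 in DMSO, with 0 lower in both.

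These counts depend on both libraries that stand apart. Without them, entinostat lowered 4 and raised 0 of 10 activators without doxycycline and lowered 8 and raised 0 with it. It raised 1 and lowered 3 of 11 PRC2 subunits without doxycycline, and raised 3 and lowered 6 with it. Of 19 PRC1 subunits it raised 5 and lowered 7 without doxycycline, and raised 3 and lowered 14 with it. That fit called 36.2% of all genes higher and 27.7% lower without doxycycline, and 43.1% higher and 34.7% lower with it. Doxycycline in DMSO then raised 8 activators, 4 PRC2 and 8 PRC1 subunits, and lowered 0, 1 and 0, in the fit with 17.4% of all genes higher. The interaction called 7 activators, all negative, and 3 positive and 6 negative PRC2 and 2 positive and 10 negative PRC1 subunits, in the fit that called 21.5% of all genes positive and 30.0% negative.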

How the data were processed

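Polyadenylated RNA of 18 libraries was counted by the authors. The deposited values are raw counts per gene, per the file headers, in 1 table for each experiment; bcl2fastq 2.17.1.14, STAR, DESeq2 and mm10 are named in the submitters' processing notes, and the counter and annotation are not given in the sources used here. The table of experiment 1 has no value under 1. Per the labels' protocols the library kit was TruSeq RNA v2, which does not mark strand. The members and gene lists were chosen with earlier results of these data known.

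Each experiment was fitted across all genes with edgeR 4.0.16 (R 4.3.3): TMM factors, filterByExpr with a minimum count of 10, quasi-likelihood tests, two-sided, Benjamini-Hochberg adjustment, threshold 0.05. The biological coefficient of variation (common dispersion) came to 0.194 and 0.242. The script was tested on simulated data. A group at 0 was taken as at most 3 counts over the group, and ratios have exact binomial intervals at 95%. Reads are not molecules, so these cover counting error only. Positions and exon lengths came from GENCODE release M21 (mm10), which held every listed Hox gene.

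Values in every library are given for members called in a contrast and for the member with the highest mean CPM of each cluster in each experiment. From each other list up to 4 called genes were named by adjusted p, plus Meis1, Kmt2a, Ezh2 and Spi1; 1 item is not reported here. Same-number libraries correlated, as deviations from group means over genes, at 0.934, 0.855 and 0.461 in experiment 1. They correlated at 0.564, 0.558 and 0.101 between Dox_DMSO and NoDox_DMSO, and at 0.550, 0.590 and 0.122 between NoDox_Entinostat and NoDox_DMSO. Between Dox_DMSO and NoDox_Entinostat the values were 0.890, 0.793 and 0.763. All of these lie above the limit of 0.1 set for pairing. Some libraries of unlike number correlated more than same-number ones. Replicate 3 of Exp1_Dox had 0.504 with replicate 2 of Exp1_NoDox, and replicate 3 of Dox_DMSO had 0.494 with replicate 2 of NoDox_DMSO. The number thus does not mark every pair. Other settings tried were DESeq2-type (RLE) factors, unscaled library sizes, all genes unfiltered, 1 CPM in at least 3 libraries, a limit of 2-fold, DESeq2 1.42.0, limma-voom (limma 3.58.1), a replicate block, groups fitted alone, experiment 1 counts minus 1, and libraries left out.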

Additional observations from a re-analysis of the deposited data

How the results depend on the processing

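With the replicate number as a block, 6 Hox genes were called for doxycycline in experiment 1, 2 in DMSO, 1 in entinostat (Hoxc10, -1.42 ± 0.40, adjusted p = 0.0149) and 1 for the interaction (Hoxc12, -1.52 ± 0.33, adjusted p = 0.0463). The block changed no entinostat call. Of all genes it called 26.1% higher and 24.7% lower in experiment 1 and 5.89% higher in DMSO. It called 22.7% lower in entinostat and 0.691% negative for the interaction. Same-number libraries correlated at 0.0708 to 0.112 between Dox_Entinostat and NoDox_Entinostat and at 0.0730 to 0.0948 between Dox_Entinostat and Dox_DMSO. Between Dox_Entinostat and NoDox_DMSO the values were 0.188, 0.0758 and 0.199. These lie on both sides of the limit of 0.1, so it is not settled whether the number pairs the Dox_Entinostat libraries. For doxycycline in DMSO the count was 0 at a limit of 2-fold, with library size alone and with the 2 groups fitted alone. There 2.53%, 3.24% and 3.33% of all genes were called higher. It was 2 with RLE factors, DESeq2 or at least 1 CPM, where 3.85%, 5.78% and 4.89% of all genes were called higher. For doxycycline in entinostat it was 2 with library size alone and 1 with no filter, DESeq2 or the groups alone. These calls were all lower, where 20.9%, 12.4%, 17.5% and 10.8% of all genes were called lower, in the same order. Entinostat counts were 6 without doxycycline and 3 with it at 1 CPM, where 10 Hox genes were tested and 27.4% and 31.6% of all genes were higher, and 4 with doxycycline for the groups alone (33.6% of all genes higher). Without both libraries that stand apart, 3, 7 and 5 genes were called for doxycycline in DMSO, in entinostat and for the interaction.

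Leaving out 1 library gave 0 to 3 Hox genes for doxycycline in experiment 1, 0 to 2 in DMSO and 0 to 5 in entinostat (5 without NoDox_Entinostat replicate 1), 8 to 13 for entinostat without doxycycline, 5 to 8 with it, and 0 to 2 for the interaction. Over all genes these ranges were 684 to 1508, 862 to 1741, 994 to 7583, 6009 to 8193, 8315 to 10947 and 9 to 3061, against 1881, 1401, 3614, 7099, 9595 and 41 with every library. The block called 7027 genes in experiment 1, 6115 for doxycycline in entinostat and 177 for the interaction. A limit of 2-fold called 817, 2021 and 4547 genes for doxycycline in experiment 1, in entinostat and for entinostat without doxycycline. For the interaction DESeq2 called 229 and no filter 206. Without both libraries that stand apart, 4846, 9569 and 7972 genes were called for doxycycline in DMSO, in entinostat and for the interaction. Library size alone moved the median of all genes to 0.32 for entinostat without doxycycline, 0.28 with it and -0.22 for doxycycline in entinostat, with 5417 genes higher and 1233 lower in the first, against 4554 and 2545. No called Hox gene reversed direction. The balance over all genes turned from 727 higher and 1154 lower to 3611 and 3416 with the block in experiment 1, from 568 and 833 to 2697 and 2149 without both libraries for doxycycline in DMSO, and from 25 and 16 to 73 and 104 (block) or 3326 and 4646 (without both) for the interaction. The cause of these shifts was not tested. Low counts limit the calls in cluster A, where 2 of 7 genes could be tested.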

Other observations

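Of the 13 flanking genes tested, entinostat raised 4 and lowered 3 with doxycycline, and raised 4 and lowered 1 without it. Of all genes 33.9% were higher and 29.9% lower with doxycycline, and 30.3% higher and 16.9% lower without it. The median log2 fold change of the 13 was 0.18 with doxycycline and 0.11 without it. Leaving out both libraries that stand apart, 6 were higher and 4 lower with doxycycline, and 6 higher and 3 lower without it. That fit called 43.1% of all genes higher and 34.7% lower with doxycycline, and 36.2% higher and 27.7% lower without it. The flanking genes given next, Evx2, Ttll6 and Skap1, are those with the smallest adjusted p without doxycycline. Evx2, a homeobox gene beside Hoxd13 (mm10 chromosome 2, 74652991 to 74659557), had 24, 49 and 31 counts in Dox_Entinostat, 51, 48 and 51 in NoDox_Entinostat, 1, 0 and 1 in Dox_DMSO and 0, 0 and 2 in NoDox_DMSO libraries. Ttll6, beyond Hoxb13 (chromosome 11, 96133786 to 96165451), had 46, 151 and 95 counts in Dox_Entinostat, 134, 122 and 74 in NoDox_Entinostat, 0 in each Dox_DMSO library and 1, 3 and 2 in NoDox_DMSO libraries. Both were at or near 0 in DMSO and counted in every entinostat library. Skap1, an adaptor of immune cell adhesion on the other side of cluster B (chromosome 11, 96464593 to 96759130), had 258, 416 and 404 counts in Dox_Entinostat against 20, 10 and 15 in Dox_DMSO libraries (4.55 ± 0.37, adjusted p = 1.61e-06 in the edgeR test). It had 257, 166 and 160 counts in NoDox_Entinostat against 7, 7 and 9 in NoDox_DMSO libraries (4.47 ± 0.39, adjusted p = 3.53e-06). Hotair, a long noncoding RNA of cluster C (chromosome 15, 102944062 to 102947730), had 17, 24 and 18 counts in Dox_Entinostat against 5, 8 and 1 in Dox_DMSO libraries (2.04 ± 0.51, adjusted p = 0.00380), and 38, 41 and 33 in NoDox_Entinostat against 6, 4 and 3 in NoDox_DMSO libraries (2.88 ± 0.50, adjusted p = 0.000459). In the same fit without both libraries, Skap1 had 4.88 ± 0.32 with doxycycline and 4.13 ± 0.31 without it, and Hotair 2.14 ± 0.62 and 2.80 ± 0.55, all called.

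Doxycycline raised 1 and lowered 3 of 11 flanking genes in experiment 1 (5.26% and 8.36% of all genes), raised 0 and lowered 2 of 13 in DMSO (3.77% and 5.53%), and raised 2 and lowered 2 of 13 in entinostat (8.96% and 15.1%). Skap2 and Snx10, which lie beyond Hoxa genes, fell in experiment 1 (-0.84 ± 0.10 each, adjusted p of 0.00414 and 0.00405) and in DMSO (-0.93 ± 0.21 and -1.01 ± 0.22, adjusted p of 0.0112 and 0.0108). In entinostat Skap2 fell again (-0.96 ± 0.21, adjusted p = 0.00851), and Snx10 had -0.03 ± 0.22. Skap1 rose in experiment 1 (1.69 ± 0.39, adjusted p = 0.0376) and in entinostat (1.08 ± 0.30, adjusted p = 0.0257). Hnrnpa1, beyond cluster C, fell in experiment 1 (-0.43 ± 0.09, adjusted p = 0.0278) and in entinostat (-1.19 ± 0.22, adjusted p = 0.00358), and Atp5g1 rose in entinostat (0.89 ± 0.25, adjusted p = 0.0260).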
